A study of Mus musculus with 6 samples.

Results

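Imprinted genes are expressed mainly from the copy inherited from 1 parent, and 9 such genes were examined for 5-hydroxymethylcytosine (5hmC) in mouse blood cells with and without Tet2. The list held 10 names, and Zac1 is an older name of Plagl1, so the genes were Igf2r, Grb10, Dlk1, Gnas, Peg3, Mest, Plagl1, Snrpn and Nnat. Each gene was taken as its RefSeq span plus 5 kb at each end, and a region was a stretch covered by overlapping 5hmC peaks of any of the 4 libraries. By this rule 47 of 174070 regions lay at the 9 genes, out of 21887 protein-coding genes in the table. The number of regions per gene ran from 1 at Mest and at Nnat to 20 at Snrpn.

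Marks on imprinted genes are set in the germ line. Control regions of these genes carry 5-methylcytosine on 1 parental copy alone, and the zinc finger protein ZFP57 with its partner TRIM28 and the maintenance methyltransferase DNMT1 keep that difference after fertilisation. TET enzymes oxidise 5-methylcytosine to 5hmC, so a methylated copy can serve as their substrate. Igf2r and Grb10 are known as growth-restraining genes that are mainly expressed from the maternal copy in most tissues, Gnas is a complex locus with transcripts of either parental copy, and Dlk1, Peg3, Mest, Plagl1, Snrpn and Nnat are paternally expressed.

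The cells were bone marrow cells of C57BL/6 mice enriched for the receptor Kit, with a Tet2 gene that Cre can excise (Tet2fl/fl) and the drug-activated recombinase CreER. All cultures also carried AML1-ETO, the fusion protein of a translocation in acute myeloid leukaemia, from the retrovirus MigR1-AE-IRES-GFP. Flox cultures were given ethanol and kept Tet2fl/fl, while KO cultures were given 200 nM 4-hydroxytamoxifen for 2 passages (4 days) and are labelled Tet2-/-. At passage 5, immature myeloid cells positive for GFP and CD16/32 and negative for CD11b and Gr1 were taken by sorting, and DNA pulled down with an antibody to 5hmC was sequenced in 2 libraries per group. The age and number of the mice, the promoter that drives CreER and the share of cells with excised Tet2 were not stated in the labels. Drug, active Cre and loss of Tet2 cannot be told apart in this design. The lists hold no expression values, so the sorted cell type was not checked against markers.

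The 4 lists were alike in size, with 116539 to 122101 peaks covering 110.3 to 113.3 Mb, and the number of reads behind them is unknown. Whether replicates came from separate cultures is not in the labels, and p-values may then measure technical spread. Peaks do not tell the parental copies apart, and a score is the authors' caller's own value for a peak within its library.

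The 300 bases around the starts of these genes show where 5hmC was and was not called. The RefSeq promoter table (GRCm38.p6) holds 18 starts for the 9 genes, each from 250 bases before to 50 bases after the start, and 1 of the 18 was overlapped by a peak. Over all 32851 promoters of the table, 14.2% were overlapped in at least 1 library and 5.19% in every library. The exception was the Gnas start that lies farthest into the gene, printed here first because it is the start under peaks. The Snrpn start that it shares with Snurf follows because a region called in all libraries begins 236 bases from the end of its window. The Peg3 and Mest starts, which belong to known methylated control regions, are shown as starts with no peak over them. They are written 5' to 3' in gene direction, with each CG, the site that methylation and TET enzymes act on, in capitals.
Gnas (chr2:174329756-174330055, plus strand): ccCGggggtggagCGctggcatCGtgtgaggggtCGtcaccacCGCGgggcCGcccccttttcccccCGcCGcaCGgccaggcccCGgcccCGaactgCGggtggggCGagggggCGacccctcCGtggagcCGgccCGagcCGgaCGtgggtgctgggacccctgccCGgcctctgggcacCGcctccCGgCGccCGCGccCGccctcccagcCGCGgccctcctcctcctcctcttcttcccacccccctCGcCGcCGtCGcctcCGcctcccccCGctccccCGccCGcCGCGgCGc
Snrpn (chr7:60005150-60005449, minus strand): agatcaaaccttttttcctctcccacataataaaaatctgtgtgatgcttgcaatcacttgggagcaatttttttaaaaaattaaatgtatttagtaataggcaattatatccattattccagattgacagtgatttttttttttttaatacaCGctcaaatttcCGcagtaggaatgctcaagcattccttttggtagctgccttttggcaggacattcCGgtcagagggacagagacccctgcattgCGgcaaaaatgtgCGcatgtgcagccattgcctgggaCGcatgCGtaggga
Peg3 (chr7:6730370-6730669, minus strand): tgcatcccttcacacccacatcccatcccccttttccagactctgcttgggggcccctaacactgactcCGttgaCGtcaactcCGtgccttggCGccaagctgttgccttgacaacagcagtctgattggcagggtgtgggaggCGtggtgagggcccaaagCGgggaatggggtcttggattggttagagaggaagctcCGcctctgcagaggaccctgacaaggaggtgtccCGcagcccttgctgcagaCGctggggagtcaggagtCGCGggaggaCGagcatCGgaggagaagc
Mest (chr6:30737800-30738099, plus strand): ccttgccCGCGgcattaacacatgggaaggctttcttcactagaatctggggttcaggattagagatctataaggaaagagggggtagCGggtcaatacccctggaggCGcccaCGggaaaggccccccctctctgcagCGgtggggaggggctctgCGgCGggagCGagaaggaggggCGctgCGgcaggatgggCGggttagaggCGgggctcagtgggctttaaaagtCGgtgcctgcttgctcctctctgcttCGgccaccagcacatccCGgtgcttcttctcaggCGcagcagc
The Gnas sequence holds 40 CG, against 7 in the Snrpn, 13 in the Peg3 and 17 in the Mest sequence. Over the 18 starts the number of CG ran from 2 to 45 with a median of 16.5, beside a median of 7 over all promoters of the table and of 11 over those under a peak in every library. TGCCGC, the core of the motif of ZFP57, was searched on both strands (the other strand reads GCGGCA), and it does not overlap itself. It was found at 6 of the 18 starts, 2 of which are Mest starts that share nearly all their bases, and in 11.6% of all promoters. The motif itself holds a CG, and the 2 shares were not matched for the number of CG. The Snrpn sequence holds 1 match, the printed Mest sequence 2, and the Gnas and Peg3 sequences none.

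Most regions at the imprinted genes touched a gene body, and few came within 1 kb of a gene end. Gene spans also made up most of the bases searched (467683 of 477683 bp at Snrpn). The split therefore largely follows the choice of interval, and it was not compared with that of other genes. Of the 47 regions, 40 touched a gene body, 5 lay in the 5 kb downstream and 2 in the 5 kb upstream. Within 1 kb of an end of the gene span there were 2 regions, and both were at 3' ends, at Dlk1 (459 bp from the end) and at Peg3 (802 bp). By listed starts, which include starts inside a gene, 4 regions came within 1 kb: 2 at Gnas, 1 at Dlk1 and 1 at Snrpn.

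**Figure D1:**
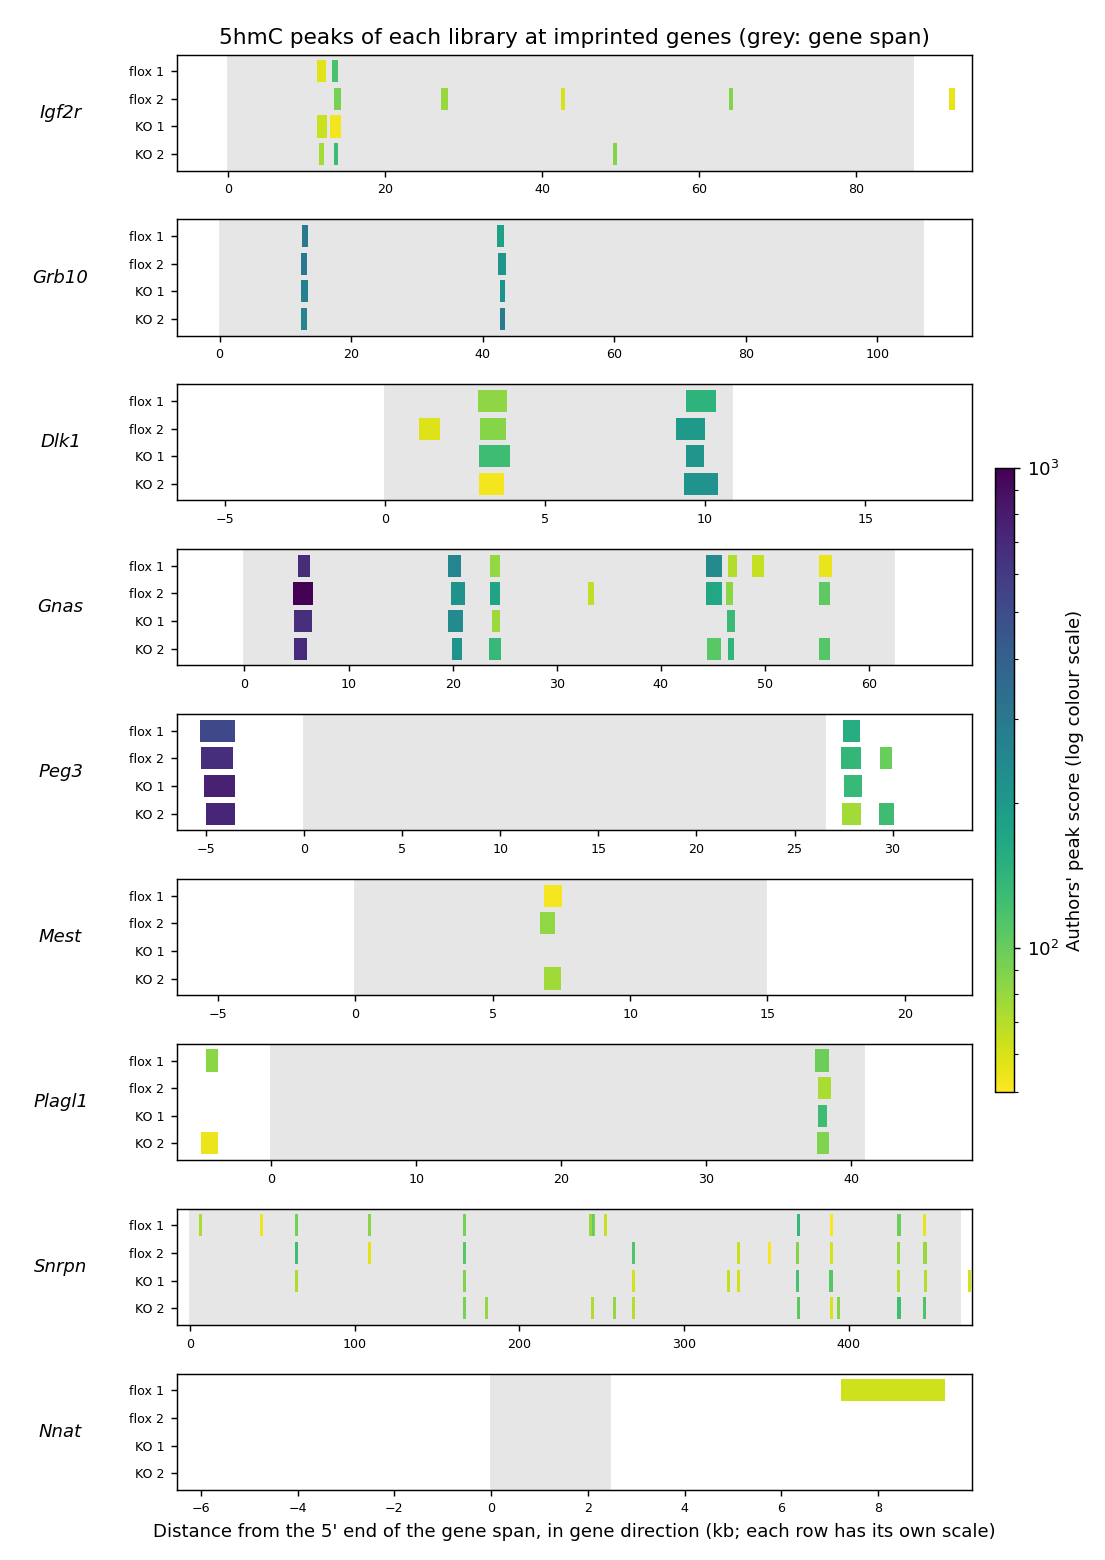
Peaks of each library (rows within a panel) along the 9 genes, drawn in gene direction in kb from the 5' end of the span (grey), each panel with its own scale and coloured by the authors' peak score. The darkest blocks, in all 4 libraries, stand near the 5' side of Gnas and upstream of Peg3, and the Nnat span itself holds no peak.

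Of 28 regions at these genes called in at least 2 libraries, 27 were called in both genotypes, as were 91.8% of such regions of the genome. There were 17 regions called in all 4 libraries (36.2% of 47), against 39.5% of all regions of the genome. At Igf2r, Grb10, Dlk1, Gnas, Peg3, Plagl1 and Snrpn there was at least 1 such region, and at Mest and Nnat there was none. A single region was flox-only, called in both flox but no KO library (2.13%, genome 2.96%), and 0 showed the reverse pattern (genome 3%). A further 19 regions (40.4%, genome 27.3%) were called in 1 library alone, and 10 (21.3%, genome 27.3%) in another mix of libraries. With so few regions these shares are a description, and no test was made over regions.

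Flox replicates 1 and 2 had 6 and 7 of the 19 single-library regions, and KO replicates 1 and 2 had 2 and 4. Over the genome 24.3% and 25.9% of such regions came from the flox pair and 22.8% and 27% from the KO pair. Their scores ran from 51.73 to 87.16, while the lowest score in any list is 50 and the median score of a list was 93.4 to 96.6. Snrpn held 10 of the 19 and Igf2r 5. Regions called in all libraries had scores from 51.74 to 978.8 with a median of 127. The median score percentile was 22.2 for the single-library regions (19.5 over the genome) and 57.1 for those called in all libraries (63.7 over the genome).

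**Figure D2:**
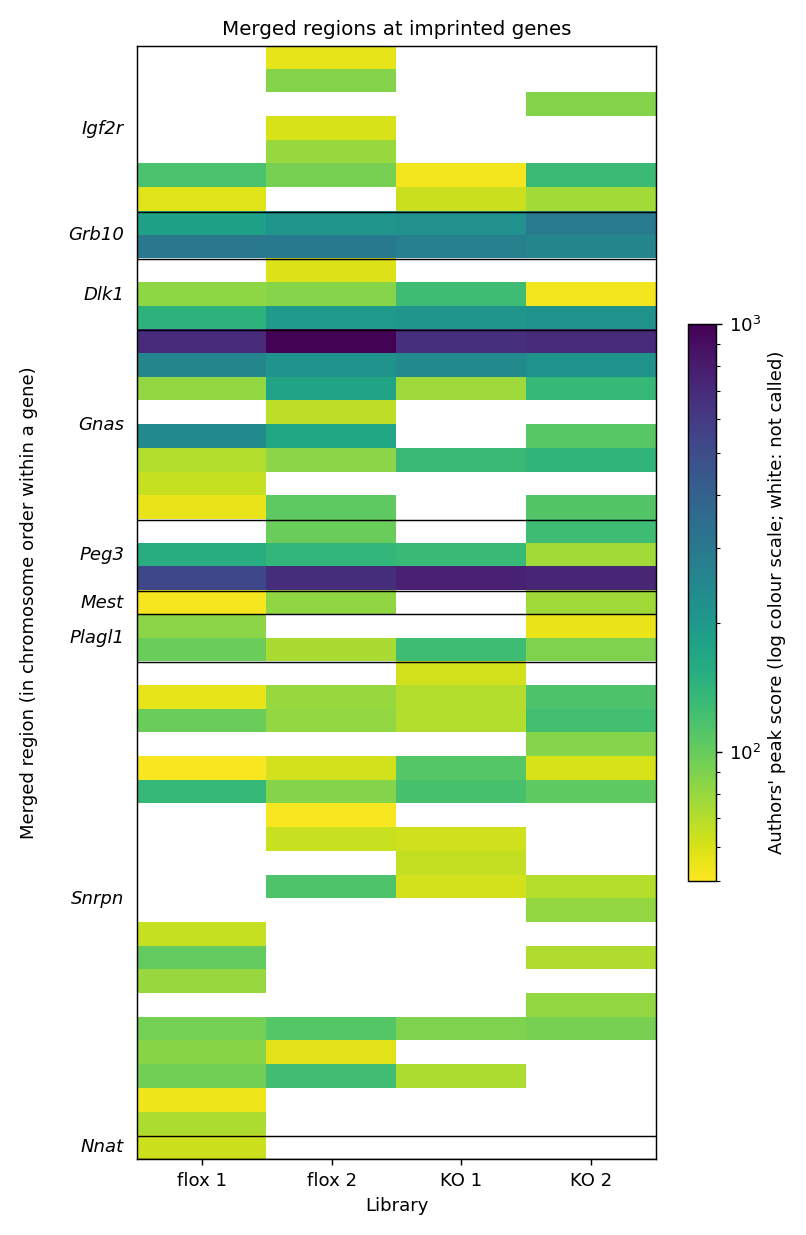
Score of each of the 47 merged regions (rows, grouped by gene) in each library (columns), with white where no peak was called. Rows filled in all 4 columns number 17, and the single region filled in both flox columns alone lies in Snrpn.

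Igf2r encodes the receptor that takes up insulin-like growth factor 2 for breakdown and sorts lysosomal enzymes (chromosome 17, 12682406 to 12769706, minus strand). Called length over its interval was 1907 and 3503 bp in flox replicates 1 and 2 and 2518 and 1657 bp in KO replicates 1 and 2. The groups overlapped, and flox replicate 2 stood highest. Its 1 region called in all libraries (12755247 to 12756647) lies 13059 bp inside the 5' end, with scores of 118.31 and 92.88 in the flox pair and 52.88 and 129.76 in the KO pair. A neighbouring region 11381 bp from the same end was called in all but flox replicate 2. Both lie within Airn, the non-coding RNA that is transcribed against Igf2r and silences it on the paternal copy. The Airn start was not under a peak. A region 363 bp into Airn (12741674 to 12742615) was called in flox replicate 2 alone, with a score of 79.39.

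Grb10 encodes an adaptor protein that dampens insulin receptor signalling (chromosome 11, 11930499 to 12037428, minus strand). It held 2 regions, and both were called in all 4 libraries. The first (12024000 to 12025083), 2888 bp beyond a start inside the gene, scored 300.35 and 298.85 in the flox pair and 272.57 and 254.92 in the KO pair. The other (11993955 to 11995319) scored 180.85 and 209.13 in the flox pair and 220.83 and 291.86 in the KO pair. Thus the score order of the libraries was opposite at the 2 regions of 1 gene. At the second region the highest flox and lowest KO score percentiles were close (88.24 and 88.58). Over the genome, both KO libraries lay above both flox libraries in score percentile at 17.3% of regions called in every library, and below them at 16.2%. Called length was 2016 and 2039 bp in the flox pair and 1825 and 1657 bp in the KO pair, so the KO pair lay below the flox pair by a small margin (limma log2 difference -0.16, SE 0.25).

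Dlk1 encodes a transmembrane protein of the Notch ligand family (chromosome 12, 109452485 to 109463336, plus strand). Called length was 1843 and 2328 bp in the flox pair and 1528 and 1817 bp in the KO pair. After scaling, KO replicate 2 (1819 bp) lay above flox replicate 1 (1809 bp), so the groups overlapped. The region near its 3' end (109461579 to 109462877) was called in all libraries, at 144.56 and 200.33 in the flox pair and 209.58 and 214.38 in the KO pair. A weaker one (109455397 to 109456403) was also called in each library, with scores of 52.55 to 127.07, and flox replicate 2 alone had a further region near the start.

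Gnas encodes the stimulatory G protein alpha subunit, which links hormone receptors to adenylyl cyclase, with further transcripts from upstream starts (chromosome 2, 174284320 to 174346744, plus strand). It had the largest difference between genotypes among the listed genes that were tested. Called length was 8219 and 7906 bp in the flox pair and 4669 and 6443 bp in the KO pair, or 8063 ± 221 and 5556 ± 1254 bp (SD, n = 2 each). The pairs did not overlap. Limma gave a log2 difference of -0.50 (SE 0.20), which did not pass over all genes (limma adjusted p = 0.807, unadjusted p = 0.0471, a level under 0.05 that 4.3% of all genes tested reached with less length in KO). The difference was -0.29 without KO replicate 1 and -0.71 without KO replicate 2, so its size changed with the KO library kept. With peaks of a score of at least 100 alone it was -0.030, and with the 50000 highest scored per library -0.16, so the size did not hold among the stronger peaks.

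Of the 8 Gnas regions, 4 were called in every library. The strongest (174288983 to 174290857), which overlaps the antisense gene Gnasas1, scored 689.92 and 978.8 in the flox pair and 664.02 and 701.74 in the KO pair, which put it at percentiles 99.0 to 99.8 of the peak lists. The next (174303899 to 174305531) scored 256.04 and 216.2 in the flox pair and 241.48 and 214.62 in the KO pair. At neither did the score percentiles of the groups separate.

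The region over the Gnas start printed above (174328623 to 174330188) was missing from KO replicate 1 and called in the other 3 libraries. The 3 peaks covered all 300 bases of that promoter, and their scores were 241.79 and 167.37 in the flox pair and 108.8 in KO replicate 2. A region at 174339506 to 174340797 had the same pattern, with scores of 55.27, 105.71 and 111.12. At 428 bp beyond the first, the region at 174330617 to 174331643 went the other way, with 70.67 and 84.24 in the flox pair and 131.09 and 140.21 in the KO pair. The scores of these 2 neighbouring stretches thus ran in opposite orders, though KO replicate 2 had the stretch over the start as well, over 1384 bp. Over the genome, 17.3% of regions called in every library had both KO libraries above both flox libraries in score percentile. Neither order was tested. With peaks of a score of at least 100 alone, the region at 174330617 to 174331643 counted as called in the KO pair only.

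KO replicate 1 lacked 3 regions that the other libraries shared, 2 at Gnas and 1 at Mest. Each of the other libraries lacked 1 in this way, and over the genome such regions made up 4.18% for KO replicate 1 and 3.49% to 4.41% for the others. Summed over the 9 intervals, called length was 27054 and 27950 bp in the flox pair and 21191 and 25251 bp in the KO pair, and the number of regions called was 31 and 32 in the flox pair and 23 and 29 in the KO pair. KO replicate 1, the lowest in both, also had the fewest peaks in all. Its total called length over the genome (110.302 Mb) was not the lowest, as flox replicate 2 had 110.295 Mb. The part of the fewer peaks in the Gnas result was not tested.

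**Figure D3:**
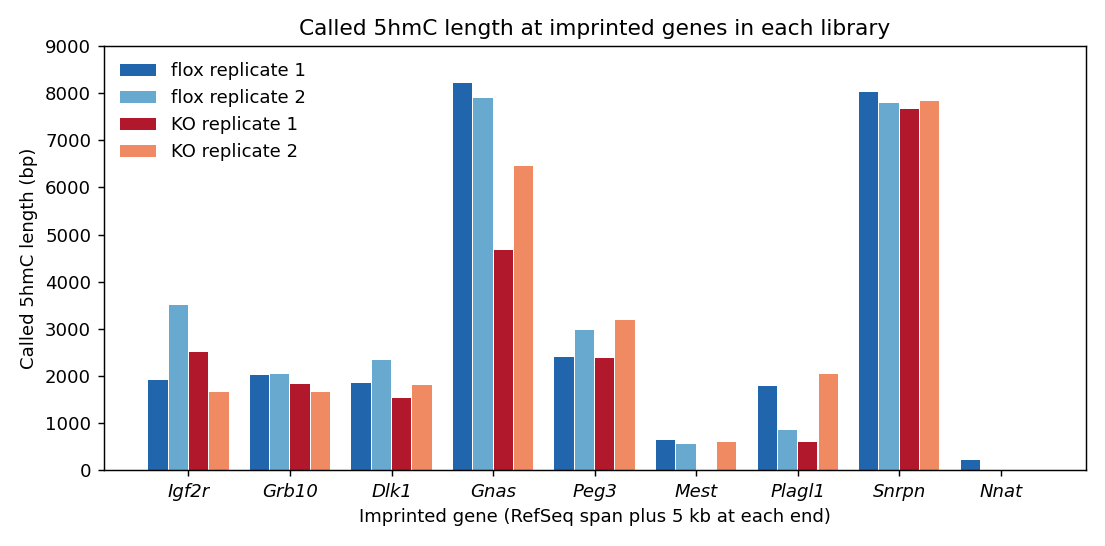
Called 5hmC length in bp (bars, from 0) over each gene and 5 kb at each end in the 4 libraries. Both KO bars stand below both flox bars at Gnas, by the widest margin, and by less at Grb10 and Dlk1. The Snrpn bars reach nearly the same height.

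Peg3 encodes a zinc finger protein that regulates growth and maternal behaviour (chromosome 7, 6703892 to 6730462, minus strand). Its span held no peak in any library, and its called length came from the flanks. Called length was 2395 and 2979 bp in the flox pair and 2378 and 3194 bp in the KO pair, with overlapping groups. The region 3521 bp upstream of its 5' end (6733983 to 6735775), inside the neighbouring paternally expressed gene Usp29, scored 524.39 and 678.88 in the flox pair and 759.33 and 726.85 in the KO pair. These scores were at percentiles 98.3 to 99.4 of the peak lists. A region 802 bp beyond the 3' end (6702010 to 6703090) was weaker, at 155.18 and 137.15 in the flox pair and 132.98 and 75.33 in the KO pair.

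Plagl1 encodes a zinc finger transcription factor that restrains cell growth (chromosome 10, 13090832 to 13131694, plus strand). Called length was 1795 and 860 bp in the flox pair and 604 and 2034 bp in the KO pair. The 2 libraries of each genotype differed more from each other than the genotype means (1328 and 1319 bp). A region near the 3' side of the gene (13128320 to 13129427) was called in all libraries, with scores of 73.15 to 127.26. The region 3628 bp upstream was called in flox replicate 1 and KO replicate 2 only and set the difference between replicates.

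Mest encodes a protein of the hydrolase fold family (chromosome 6, 30733506 to 30748466, plus strand). Its single region (30740211 to 30741016), 2158 bp inside the nearest start, was called over 643 and 553 bp in the flox pair and over 608 bp in KO replicate 2, with no peak in KO replicate 1. The scores were 51.84, 82.59 and 77.04, below the median of each list.

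Snrpn encodes a core protein of the splicing machinery and starts at the control region of the Prader-Willi locus (chromosome 7, 59982495 to 60450177, minus strand). The RefSeq span is long because it takes in upstream starts. Called length was 8023 and 7782 bp in the flox pair and 7669 and 7841 bp in the KO pair (limma log2 difference -0.01, SE 0.14), the smallest difference among the listed genes tested. Of its 20 regions, 5 were called in every library. The region beside the shared Snrpn and Snurf start (60003292 to 60004914) begins 285 bp inside the transcript, with 1199 and 1282 bp called in the flox pair and 1203 and 1563 bp in the KO pair. Its scores of 56 and 79.82 in the flox pair and 70.23 and 115.78 in the KO pair overlapped. The flox-only region (60341592 to 60342282) lies 107895 bp from the 5' end of the span and was weak, with 85.56 and 57.05.

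Nnat encodes a small membrane protein of neural and endocrine cells and lies inside Blcap (chromosome 2, 157560078 to 157562525, plus strand). No library had a peak in its span. A single peak of flox replicate 1, with a score of 63.1, reached 213 bp into the downstream flank.

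Per base, Gnas and Dlk1 carried the most called 5hmC of the 9 genes. Averaged over the 4 libraries, 9.40% of the Gnas interval and 9.01% of the Dlk1 interval was called, followed by Peg3 with 7.48%. These 3 genes stood between percentiles 77.4 and 84.2 of all protein-coding genes, for which the median was 3.23%. Gnas ran from 6.45% to 11.3% over libraries and Dlk1 from 7.33% to 11.2%, so this pair did not differ beyond the spread, and Peg3 (6.50% to 8.73%) overlapped both. Plagl1 (2.60%), Igf2r (2.46%), Mest (1.81%), Snrpn (1.64%) and Grb10 (1.61%) lay below the median, at percentiles 44.3 to 34.8, and Nnat (0.43%) was last. The library values of Plagl1, Igf2r and Mest overlapped, and so did those of Snrpn and Grb10. Likeness was measured as the distance over the 4 libraries in called percent, among genes with an interval of about the same length. By this measure the nearest gene to Gnas was Rnf115 (1.18 percentage points, 2024 genes compared), to Dlk1 Serpinf1 (1.07, 4392 genes) and to Snrpn Xkr4 (0.31, 240 genes).

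In the comparison of KO with flox over all genes, none of the listed genes passed. The fit took called length, brought to a common total, as log2(bp + 500), where a gene averaged 500 bp or more. Mest and Nnat fell under this minimum, and 7 of 9 genes were tested. Limma adjusted p-values ran from 0.807 for Gnas to 0.995 for Snrpn, and 0 of the 14162 genes tested (0%) passed an adjusted p of 0.05, with 869 (6.14%) at an unadjusted p under 0.05. The log2 difference was -0.27 (SE 0.35) for Igf2r, -0.24 (SE 0.27) for Dlk1, -0.07 (SE 0.50) for Plagl1 and 0.05 (SE 0.25) for Peg3. Of the 7 genes, 6 were lower in the KO pair, as were 54.6% of all genes tested, and the median was -0.16 beside -0.04 over all genes.

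In scaled length, the KO pair lay wholly below the flox pair at 3 of the 7 genes (Gnas, Grb10 and, by 1 bp, Snrpn), where 20.7% of all genes tested did. None of the 7 had the reverse order, against 14.6%. Among the 17 regions called in every library, the score percentile of both KO libraries lay above both flox libraries at 4 and below them at 3, where the shares over all such regions were 17.3% and 16.2%. The 4 were the stronger Peg3 region, the Dlk1 region near the 3' end, 1 Grb10 region and the Gnas region beyond the printed start. The highest flox and lowest KO percentiles were close at Peg3 (99.26 and 99.33), Dlk1 (87.17 and 87.24) and Grb10 (88.24 and 88.58). At Gnas they were 42.1 and 70.2. With 2 libraries against 2, an exact test of a single value cannot reach a p of 0.05.

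**Figure D4:**
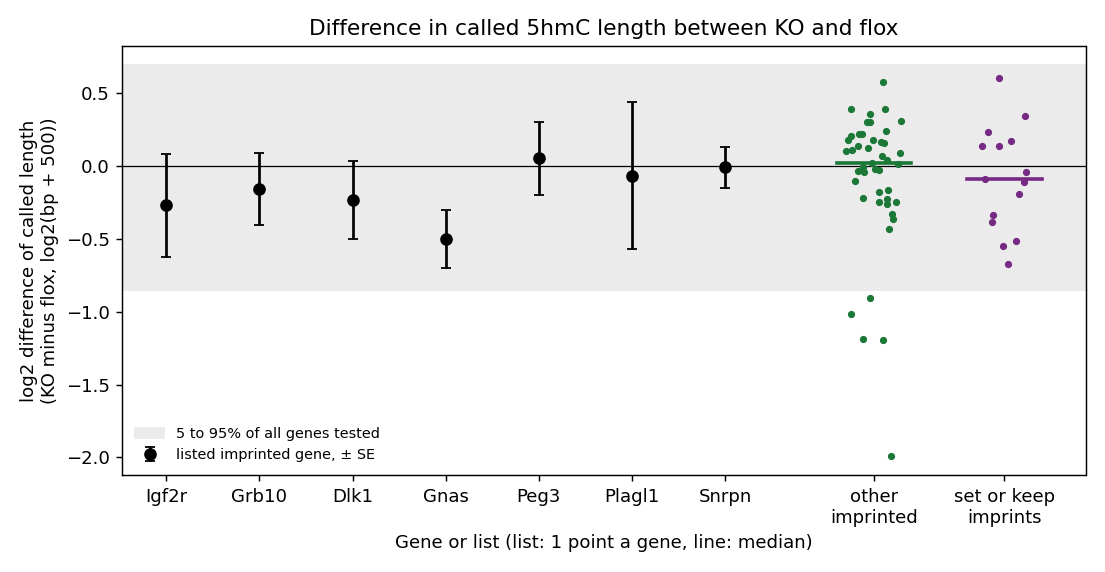
Difference in called length between KO and flox (log2 scale, points with SE bars) for the 7 listed genes tested, with single genes and medians of 2 further lists beside the range of 5% to 95% of all genes (grey). All 7 listed genes lie within the grey range, with Gnas lowest at -0.50.

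Other imprinted genes gave a median near that of all genes. Of 64 genes, 57 were protein-coding genes of the table, 45 were tested and 0 passed the adjusted threshold. At a limma unadjusted p under 0.05 there were 3 lower and 0 higher, beside 609 lower (4.3%) and 260 higher of all 14162 genes tested. By direction alone 21 were lower and 24 higher, where 54.6% of all genes tested were lower. The median log2 difference was 0.02 beside -0.04 over all genes. The KO pair lay wholly below the flox pair at 9 genes and above them at 7 (20.7% and 14.6% of all genes tested). Some of these genes share peaks with the listed ones, since they overlap them.

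Of the 4 genes lowest in KO with non-overlapping pairs, 3 lie in the imprinted Cdkn1c domain of chromosome 7. Cdkn1c, a cell cycle inhibitor gene expressed from the maternal copy, had 1974 and 1800 bp in the flox pair and 586 and 761 bp in the KO pair (log2 difference -1.02, SE 0.28). Its neighbour Slc22a18, a transporter gene, had 5402 and 5477 bp in the flox pair and 3089 and 2234 bp in the KO pair (-0.91, SE 0.22). Cd81, which encodes a tetraspanin of the cell surface, had 839 and 2449 bp in the flox pair and no called base in either KO library. The limma adjusted p was 0.773 for each of these 3 genes. These 3 were named for their size, and other tested genes of the same cluster did not share it, with log2 differences of -0.03 for Kcnq1, 0.18 for Osbpl5 and 0.21 for Ascl2. The growth factor gene Igf2 of the domain beside it stood at 0.20 (SE 0.19), with 3867 and 3532 bp in the flox pair and 4447 and 4144 bp in the KO pair. The fourth, Gpr1 on chromosome 1, had 1487 and 1217 bp in the flox pair and 0 and 796 bp in the KO pair. Copg2, which overlaps Mest, was at 0.39, Asb4 at 0.35 and Slc22a2, a neighbour of Igf2r, at 0.30, with both KO libraries above both flox libraries at each.

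Of 24 genes that set, keep or can remove imprints, 15 were tested and 0 passed. There were 9 lower (54.6% of all genes tested were) and 6 higher, with a median of -0.09. The list holds Tet1, Tet2, Tet3 and Tdg, whose products act in removing methylation. Tet2, the gene excised in KO, stood at -0.09. The KO pair was wholly below the flox pair at 4 and above them at 2 (20.7% and 14.6% of all genes tested). The histone methyltransferase gene Ehmt2 had 5840 and 5861 bp in the flox pair and 3973 and 2982 bp in the KO pair (-0.67, SE 0.21, limma adjusted p = 0.773). Tet1 (-0.55) and Tet3 (-0.51), the other TET genes, and Trim28 (-0.11) had the same order. Dppa3 (0.60), which protects methylation in the early embryo, and Ctcfl (0.34), a germ-line relative of CTCF, had the reverse order. Zfp57, Uhrf1 and Ctcf had too little called length to be tested.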

How the data were processed

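5hmC immunoprecipitation libraries of flox (2) and KO (2) cells were analysed. An IgG control and an input, the other 2 of 6 samples, were not used here. GRCm38 (mm10) is the build and CASAVA 1.8, MACS 1.4 and Bowtie are the tools named, without roles, in the submitters' processing notes. For peak calling settings, the control library and duplicate handling, nothing is given in the sources used here. A deposited file holds the start and end of each peak in 1 library. The deposited score is the log10 of the p-value beside it, multiplied by -10, and both are the authors' values. More depth can add weak peaks, and peaks called within a library need not show a change of the level across the genome.

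Coordinates count from 1 on GRCm38, and gene spans and promoters come from RefSeq (GRCm38.p6). Peaks overlapping by at least 1 bp were merged. Called length per gene, clipped to the interval, was scaled to the same total and fitted in limma 3.58.1 under R 4.3.3 (log2(bp + 500), robust, with a mean trend, Benjamini-Hochberg over all genes). This scale understates changes of genes with little called length. The fit was tested on simulated data. Lengths printed per library are unscaled unless named as scaled. Python 3.11.15, numpy 2.4.6, pandas 2.3.3 and matplotlib 3.10.9 were used. Members and lists were chosen with earlier results of these data known. All listed genes are named. Of the 2 other lists, up to 4 genes per direction with non-overlapping groups and the largest difference are named. Alternatives were stricter peaks, other intervals, overlaps, pseudocounts, filters, scaling and measures, leaving out each library, and a replicate block.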

Additional observations from a re-analysis of the deposited data

How the results depend on the processing

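In none of the alternatives did a listed gene that was fitted pass the threshold. Igf2r and Plagl1 were not fitted with the stronger peaks, nor Peg3 over the gene span alone, as they fell under the minimum there. Of 100 refitted differences of single listed genes 83 kept their direction, 14 turned and 3 were 0 (Grb10, Peg3 and Plagl1, by number of peaks). The fits without the filter and with the replicate block cannot change a difference, so the 83 do not measure robustness. All that turned did so with stricter peaks, other intervals or a library left out. With peaks scoring 100 or more the log2 difference of Dlk1 was 0.32, of Peg3 -0.053 and of Snrpn 0.63, and with the 50000 highest scored peaks 0.34, -0.022 and 0.84. Peg3 was at -0.011 over the span plus 2 kb and at -0.054 plus 10 kb, where Snrpn was at 0.017. Leaving out 1 library gave -0.65 to 0.11 for Igf2r, -0.13 to 0.23 for Peg3 and -0.67 to 0.53 for Plagl1, so each turned, and -0.39 to -0.086 for Dlk1, which did not turn. Igf2r was at 0.11 without flox replicate 2. Plagl1 was at 0.29 without flox replicate 1 and 0.53 without KO replicate 1. Peg3 was at -0.10 without flox replicate 1 and -0.13 without KO replicate 2. The cause was not tested.

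The 47 regions fell to 23 with peaks of a score of at least 100 and to 22 with the 50000 highest scored. The 17 regions called in every library fell to 6 in both settings. These lay at Grb10, Dlk1, Gnas and Peg3, while Igf2r, Plagl1 and Snrpn kept none. Regions called in both flox libraries and no KO library went from 1 to 0 with a score of at least 100 and stayed at 1 with the 50000 highest scored, there at Gnas in place of Snrpn, and those of the reverse pattern from 0 to 1 in both of these settings, at Gnas. With 1 library left out, fewer libraries decide a pattern, and the counts were 2 to 8 and 1 to 4. Over gene spans alone 1 region stayed within 1 kb of a gene end. Counting peaks in place of called length, limma passed 1010 of 16878 genes, and all 1010 had equal numbers of peaks in both libraries of each genotype, so that their spread was 0. None of them was a listed gene.

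With the replicate number as a replicate block, 0 genes passed (smallest limma adjusted p = 0.797), against 0 without it (0.773). Same-numbered libraries did not deviate together in called length (correlation of the differences between replicates across 14162 genes 0.01). This cannot tell whether they share a mouse or a culture, which the labels do not give.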

Other observations

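The interval between Dlk1 and Meg3, the maternally expressed non-coding RNA gene of the same cluster, held a region with higher scores in each library than any region at the listed genes. It spans 77659 bp (chromosome 12, 109463337 to 109540995) and contained 6 regions, of which 3 were called in all 4 libraries, 2 in 1 library and 0 in both libraries of 1 genotype and none of the other. The region at 109475809 to 109479481, 12472 bp beyond the 3' end of Dlk1, was 3673 bp wide. It was called over 2914 and 3136 bp in the flox pair and 3031 and 3673 bp in the KO pair, with scores of 794.39 and 1111.84 in the flox pair and 945.98 and 876.13 in the KO pair. The groups overlapped in score at this region. Called length over the whole interval was 5921 and 7192 bp in the flox pair and 4888 and 7939 bp in the KO pair, also with overlap.

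Non-coding imprinted RNA genes ranged from densely called to empty. H19, a maternally expressed RNA gene beside Igf2 (chromosome 7, 142575530 to 142578146), had 3591 and 2011 bp in the flox pair and 3736 and 1982 bp in the KO pair, or 22.4% of its interval, a share above that of 98.6% of protein-coding genes. Meg3 had 7009 and 5554 bp in the flox pair and 4938 and 6366 bp in the KO pair, with 4 of 7 regions called in every library. Rian, farther along the same cluster, had 3231 and 2565 bp in the flox pair and 2750 and 3019 bp in the KO pair, and all 3 of its regions were called in every library. Airn had 5252 and 4840 bp in the flox pair and 7016 and 5600 bp in the KO pair, so the KO pair lay above the flox pair. In scaled length 14.6% of the protein-coding genes tested had this order, and at Airn it was not tested. Airn overlaps Igf2r, and part of this length was also counted there. Mirg and Peg13 had no called base in any library. None of these genes had a region called in both libraries of 1 genotype and none of the other, while Meg3 had 2 and Airn 3 regions called in 1 library, and these genes were not part of the fit.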
